A study of Mus musculus with 8 samples.

Results

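Complement is a set of plasma proteins that mark microbes and damaged cells for removal and can open pores in membranes. Circulating components come largely from hepatocytes. The 9 genes described here, C3, C4b, C6, C8a, C9, Cfb, Masp1, Masp2 and Mbl1, encode components of that kind, and they were followed in mouse liver as every non-control probe whose gene name in the scanner files is one of them. That gave 15 probes for 9 genes, of 55681 different non-control probes on the array. The comparison is of liver given an adenovirus labelled AdLeXis (4 arrays) with liver given an adenovirus labelled AdGFP (4 arrays). LeXis is a liver lncRNA of the Abca1 locus, and GFP, a fluorescent protein, serves as the vector control. All mice were of the bl6 strain, 12 weeks of age and fed chow, every group had received a vector, and RNA was taken on day 6. The treatment text in the labels instead names pblockITcontrol and pblockITshRaly, so grouping here rests on the tag for treatment, which the sample titles and the design text share. No label says that each array is a separate animal, so the p-values reflect how these samples scatter, and part of that scatter may be technical. In whole liver RNA, fewer cells of a type and less RNA per cell cannot be told apart.

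Complement starts in 3 ways. In the lectin pathway, mannose-binding lectins and related proteins bind sugars on a surface. They carry the serine proteases MASP-1 and MASP-2, of which MASP-2 cuts C4 and C2. In the classical pathway the C1 complex does this, and in the alternative pathway C3 is bound together with factor B. All 3 routes cut C3, the central component, and end in the membrane attack complex built from C5b, C6, C7, C8 and C9. Several of these genes are also acute-phase genes, which liver switches on or off during inflammation.

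Of the 15 member probes, 6 were lower in AdLeXis at a limma adjusted p under 0.05, where 7.17% of all 34450 tested probes were lower. None was higher, where 7.69% of all probes were higher (0 member probes higher in any of the 18 other settings or sets of arrays tried, 0 by an unadjusted p under 0.05). The 6 probes belong to 3 genes, Masp1, C8a and C3, with 2 probes each, and the 2 probes of 1 gene read related RNA and are not independent. The median log2 difference over the member probes was -0.24, and over all tested probes 0.0022. In 7 of the 15 probes every AdLeXis array lay below every AdGFP array, where 22.9% of all probes had groups that did not overlap in either direction. In either direction, 14.9% of all tested probes passed the threshold. The share of lower probes varied with the mean scaled log2 signal, a scale defined below. It was 5.20% of the 20304 tested probes under 8 and 36.1% of the 446 over 16. Those ranges held 2 and 4 of the member probes.

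Values are the log2 of the processed spot intensity after each array was scaled on its 75th percentile, called the scaled log2 signal below. A difference of 1 on this scale is a factor of 2, and a negative difference means lower in AdLeXis. Arrays of the AdLeXis group were brighter before scaling, with a 75th percentile of 381 to 448 intensity units against 220 to 297, and with 62.6% to 67.7% against 58.9% to 62.5% of spots well above background. All 15 member probes were well above background on all 8 arrays. The 8 arrays shared 1 slide and 1 scan, but the file headers put the AdGFP arrays in slide row 1 and the AdLeXis arrays in slide row 2, so slide row and treatment cannot be told apart. All 14 probes for hepatocyte marker genes were well above background on every array, as liver RNA should show. With 4 arrays a group, their number limits the precision of every value.

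The 60-base probes that carry the largest contrast are those of Masp1. As background, RNA of this gene is spliced to give MASP-1 or MASP-3, which share their first domains and end in different protease domains, and MASP-3 is known as the activator of factor D. The sequences below are as the scanner files list them, 5′ to 3′ in the sense of the transcript, with coordinates of mouse build mm9. Capitals mark the longest run of bases that the 2 Masp1 probes have in common, 7 bases. The Masp2, C8a and C3 probes, all in lower case, are shown because each lies in a stretch with a reading frame free of stop codons and stands for its gene in the results that follow.
Masp1 A_52_P216226 (NM_008555, chr16:23452460-23452519, minus strand): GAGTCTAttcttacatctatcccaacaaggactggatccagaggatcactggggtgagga
Masp1 A_55_P1972386 (AB049755, chr16:23469978-23470037, minus strand): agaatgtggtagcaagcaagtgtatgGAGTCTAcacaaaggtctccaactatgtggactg
Masp2 A_55_P1990500 (NM_010767, chr4:147977855-147977914, plus strand): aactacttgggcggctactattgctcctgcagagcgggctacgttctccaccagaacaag
C8a A_55_P2051476 (NM_146148, chr4:104499275-104499334, minus strand): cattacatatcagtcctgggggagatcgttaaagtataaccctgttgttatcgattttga
C3 A_55_P2038525 (NM_009778, chr17:57343678-57343737, minus strand): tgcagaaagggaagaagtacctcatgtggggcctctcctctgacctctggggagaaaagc

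Recognition in the lectin pathway was read by 1 member, Mbl1, which encodes mannose-binding lectin A, a liver-made protein that binds sugars on microbes. Its probe (A_51_P373619, NM_010775, chromosome 14, 41967898 to 41970484 in mm9, across an exon junction) stood at 12.75, 12.89, 12.95 and 12.92 in AdGFP replicates 1 to 4 and at 12.24, 12.61, 12.71 and 12.65 in AdLeXis replicates 1 to 4. All 4 AdLeXis arrays lay below all 4 AdGFP arrays, and AdLeXis replicate 1 was the lowest of the 8. The difference of -0.32 (SE 0.12, 95% interval -0.60 to -0.05) missed the threshold, with a limma adjusted p of 0.109. It passed with normexp background correction (-0.50, adjusted p = 0.00953) and with a variance trend in limma (adjusted p = 0.0499), and the adjusted p ran from 0.00953 to 0.204 over the 18 alternatives.

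Masp1 gave the largest differences among the members, and its 3 probes did not move together. The probe for the RefSeq Masp1 mRNA, A_52_P216226, stood at 8.74, 8.82, 8.96 and 9.03 in AdGFP and at 7.37, 6.42, 7.11 and 6.32 in AdLeXis. The groups lay far apart, and the AdLeXis arrays spread more (SD 0.51 against 0.13, n = 4 per group), with replicates 2 and 4 the lowest. The difference was -2.08 (SE 0.23, limma adjusted p = 0.00171), a level 23.7% of that in AdGFP, or 4.23-fold lower with a 95% interval of 2.92 to 6.13.

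A second probe, A_51_P472879, is listed for the mRNA of the P100 protease of Ra-reactive factor, an older name of MASP-1 (D16492, chromosome 16, 23449609 to 23449668 in mm9). It stood at 12.32, 12.26, 12.60 and 12.39 in AdGFP and at 10.81, 10.37, 11.01 and 10.24 in AdLeXis. Again no AdLeXis array reached the AdGFP range, and replicates 2 and 4 were again the lowest. The difference of -1.78 (SE 0.18, limma adjusted p = 0.00118) was a fall to 29.0% of the AdGFP level, 3.44-fold with a 95% interval of 2.59 to 4.57.

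The third probe, A_55_P1972386, is listed for the MASP-3 mRNA and lies 17.5 kb upstream, in the direction of transcription, of A_52_P216226 and 20.4 kb upstream of A_51_P472879. It read 7.37, 7.32, 7.33 and 7.50 in AdGFP and 7.23, 7.75, 7.60 and 7.18 in AdLeXis. The groups overlapped, with 2 AdLeXis arrays above and 2 below the whole AdGFP range. The difference was 0.06 (SE 0.14, 95% interval -0.26 to 0.38, limma adjusted p = 0.821), which leaves out falls of the size of the other probes.

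Because a scaling factor is common to all spots of an array, the probes of 1 gene can also be compared within each array. Set to their AdGFP mean, the log2 differences between A_52_P216226 and the MASP-3 probe ran from -0.14 to 0.12 on the AdGFP arrays and from -2.83 to -1.37 on the AdLeXis arrays. The group difference was -2.14 for this pair and -1.84 for A_51_P472879 against the MASP-3 probe, each with an exact permutation p of 0.0286, two-sided, the smallest that 70 relabellings can give (0.0457 after Benjamini-Hochberg adjustment over 8 probe pairs). Both pairs kept this direction under 4 other scalings and without each array in turn, from -2.40 to -1.57 and from -2.18 to -1.66. The 2 lowered probes differed from each other by 0.30 (exact permutation p = 0.0857), and this value turned to -0.61 with normexp correction, so the sizes of the 2 falls were not told apart. Both falls passed the threshold in all 18 alternatives, with adjusted p from 8.56e-05 to 0.0154 for A_52_P216226 and from 3.64e-05 to 0.0102 for A_51_P472879. The smallest fall of A_52_P216226, -1.32, came with normexp correction, and the cause was not tested.

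**Figure D1:**
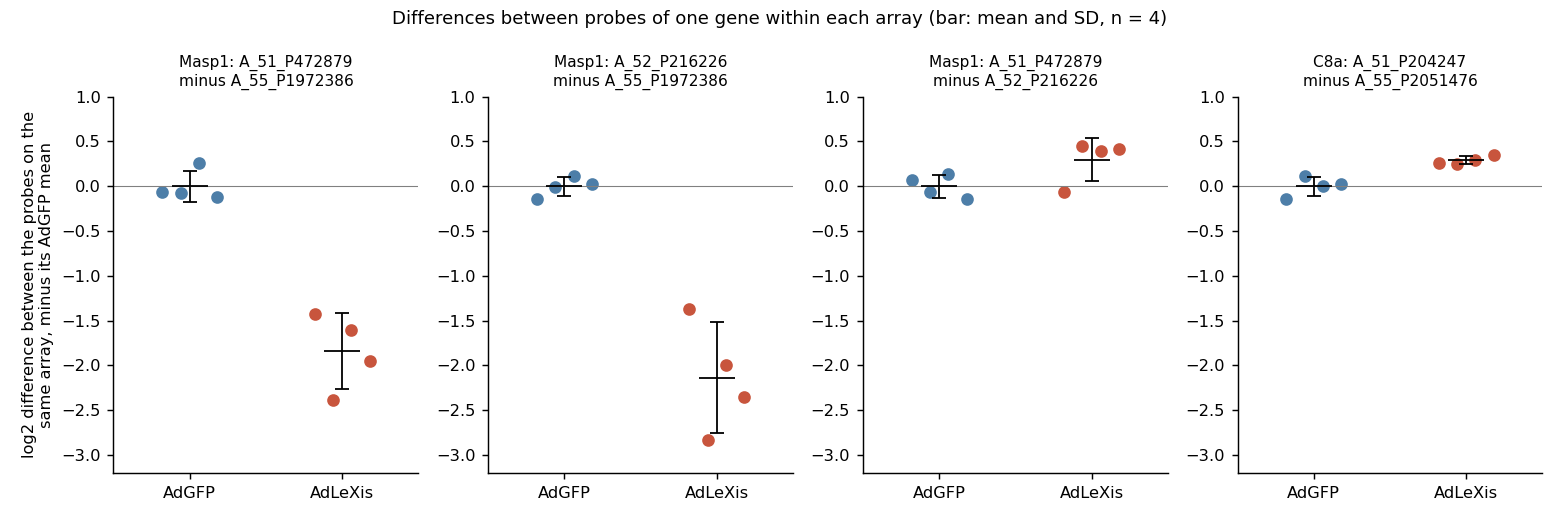
Each point is the log2 difference between 2 probes of 1 gene on 1 array, shown relative to its mean in AdGFP (4 arrays per group, bars give the mean and SD). Both Masp1 probes fell against the MASP-3 probe A_55_P1972386 on every AdLeXis array, between -2.83 and -1.37, while the 2 C8a probes differed by 0.29 between the groups.

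Masp2 encodes the protease that cuts C4 and C2 once a lectin has bound, and a shorter product without the protease domain. None of its 3 probes passed in the main test or in any alternative. The probe A_55_P1990500, listed for transcript variant 2, stood at 12.99, 13.04, 13.17 and 13.05 in AdGFP and at 13.10, 13.25, 13.32 and 13.16 in AdLeXis, a difference of 0.15 (SE 0.09, 95% interval -0.05 to 0.34, limma adjusted p = 0.300). The other probe listed for variant 2, A_55_P2185504, differed by 0.04 (SE 0.10, limma adjusted p = 0.844). The probe listed for variant 1, A_55_P1990505, differed by -0.08 (SE 0.09, limma adjusted p = 0.582). Within arrays, A_55_P1990500 was 0.23 higher against A_55_P1990505 and 0.11 higher against A_55_P2185504 in AdLeXis (each exact permutation p = 0.0286, 0.0457 adjusted over the 8 pairs). The last of these turned to -0.0017 at the low end of its alternatives. A listing for 1 variant does not show that a probe reads that variant alone, so these values do not compare the variants. The intervals of all 3 Masp2 probes lie between -0.28 and 0.34, and so leave out falls of the size seen for the 2 Masp1 probes.

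C4b encodes C4, the component whose cleavage by MASP-2 or C1s begins the C3 convertase of the lectin and classical pathways. Its probe (A_55_P2078633, chromosome 17, 34865328 to 34865387 in mm9) is also listed for NM_011413, the near-identical neighbouring C4 copy, so the 2 genes cannot be separated. The values were 16.96, 17.04, 14.37 and 16.98 in AdGFP and 16.71, 16.71, 16.65 and 16.58 in AdLeXis. AdGFP replicate 3 stood apart from the other 7 arrays, which lay between 16.58 and 17.04. The difference with all arrays was 0.33 (SE 0.56, limma adjusted p = 0.746), and without AdGFP replicate 3 it was -0.33 with an adjusted p of 0.0519, so that 1 array sets both direction and error. Over the 18 alternatives the adjusted p ran from 0.0519 to 0.806. That array has 1 spot of this probe, with a mean pixel intensity of 22967 and a pixel SD of 4250, where the other 7 spots had means of 100299 to 165848. The scanner flagged it neither as an outlier nor as saturated.

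**Figure D2:**
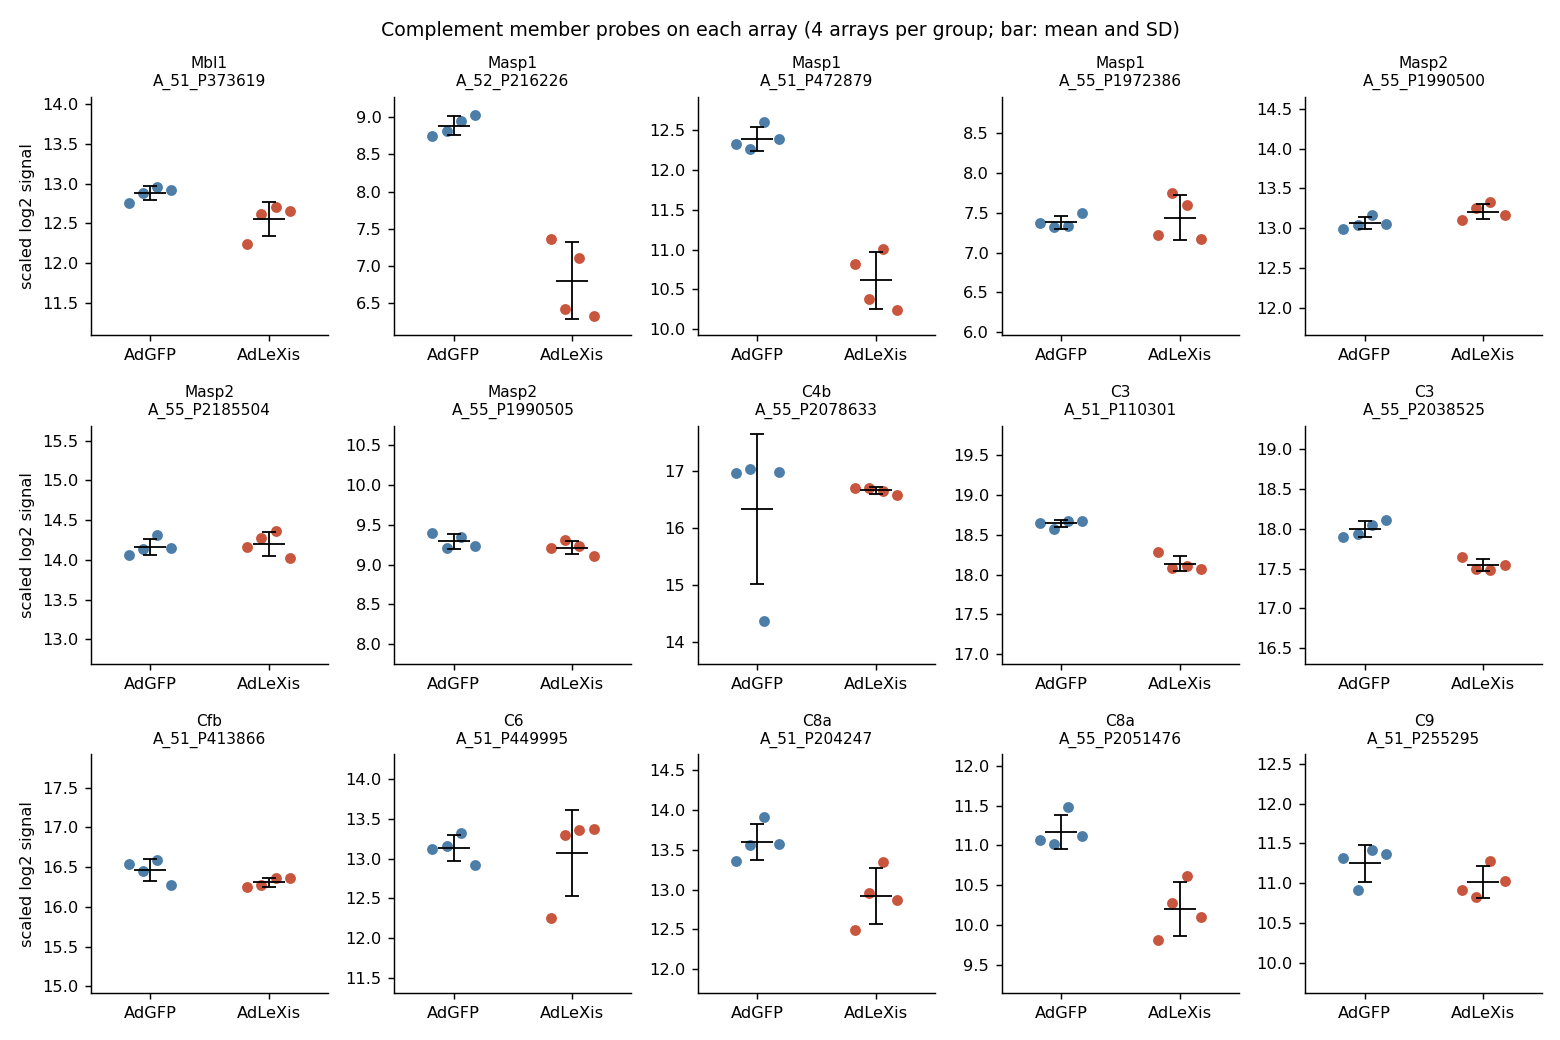
Scaled log2 signal (vertical axis) of the 15 member probes on the 4 AdGFP and 4 AdLeXis arrays, with the mean and SD of each group and points in order of replicate number; each panel has its own axis, of 3 log2 units or more. Masp1 A_52_P216226 and A_51_P472879, both C8a probes, both C3 probes and Mbl1 show no overlap, C4b has 1 low AdGFP array at 14.37, and C6 has 1 low AdLeXis array at 12.25.

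C3 is the central component that all pathways cut, and its 2 probes were among the brightest on the array. On the 10-spot probe A_51_P110301 (NM_009778, chromosome 17, 57343416 to 57343475 in mm9) the AdGFP arrays stood at 18.65, 18.58, 18.67 and 18.67 and the AdLeXis arrays at 18.28, 18.09, 18.11 and 18.08. The groups did not overlap, and AdLeXis replicate 1 was the highest of its group. The difference was -0.51 (SE 0.08, limma adjusted p = 0.00640), 1.42-fold lower.

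The single-spot probe A_55_P2038525, which the files also list for a predicted transcript, stood at 17.89, 17.94, 18.05 and 18.11 in AdGFP and at 17.64, 17.49, 17.49 and 17.54 in AdLeXis. Its difference was -0.46 (SE 0.09, limma adjusted p = 0.0118), again with no overlap. Within arrays the 2 C3 probes differed between the groups by -0.05 (exact permutation p = 0.343).

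The call for C3 depended on the scaling. Quantile scaling, alone or after normexp, gives all arrays the same set of values. That leaves little room for a shift that the brightest probes share. Whether the C3 difference is part of such a shift was not tested. With quantile scaling the difference was 0.0023 for A_51_P110301 (adjusted p = 0.987) and -0.03 for A_55_P2038525 (adjusted p = 0.826). With normexp and quantile scaling the values were 0.03 (adjusted p = 0.773) and -0.17 (adjusted p = 0.170). Cyclic loess gave smaller falls of -0.35 (adjusted p = 0.0380) and -0.31 (adjusted p = 0.0615), so that A_55_P2038525 was not called. Median scaling gave -0.59 and -0.54, both called (adjusted p = 0.00484 and 0.00752). Over the 18 alternatives the adjusted p ran from 0.000145 to 0.987 and from 0.000540 to 0.826. Before any scaling, spots of A_51_P110301 read 218373 to 397149 on the AdGFP arrays, leaving out 1 outlier spot of 75317 on AdGFP replicate 3, and 335711 to 419333 on the AdLeXis arrays, and no spot was saturated.

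Other bright probes showed the same shift under the main scaling. Of 446 tested probes with a mean scaled log2 signal over 16, 161 (36.1%) were lower and 3 higher, with a median difference of -0.22. Hepatocyte markers, which are bright, were lower for 10 of 14 probes with a median of -0.50, among them Alb for albumin (-0.61, limma adjusted p = 0.00571) and Apoa2 for an apolipoprotein of high-density lipoprotein (-0.56 and -0.55, limma adjusted p = 0.00446 and 0.00709). The mean scaled log2 level of that list ran from 17.44 to 17.54 in AdGFP and from 16.98 to 17.14 in AdLeXis, and with quantile scaling its median was -0.05 with 1 probe lower. The part of signal level in the C3 difference was not tested. Masp1 and C8a lay at lower levels, where the medians of all probes were between -0.0007 and 0.03.

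**Figure D3:**
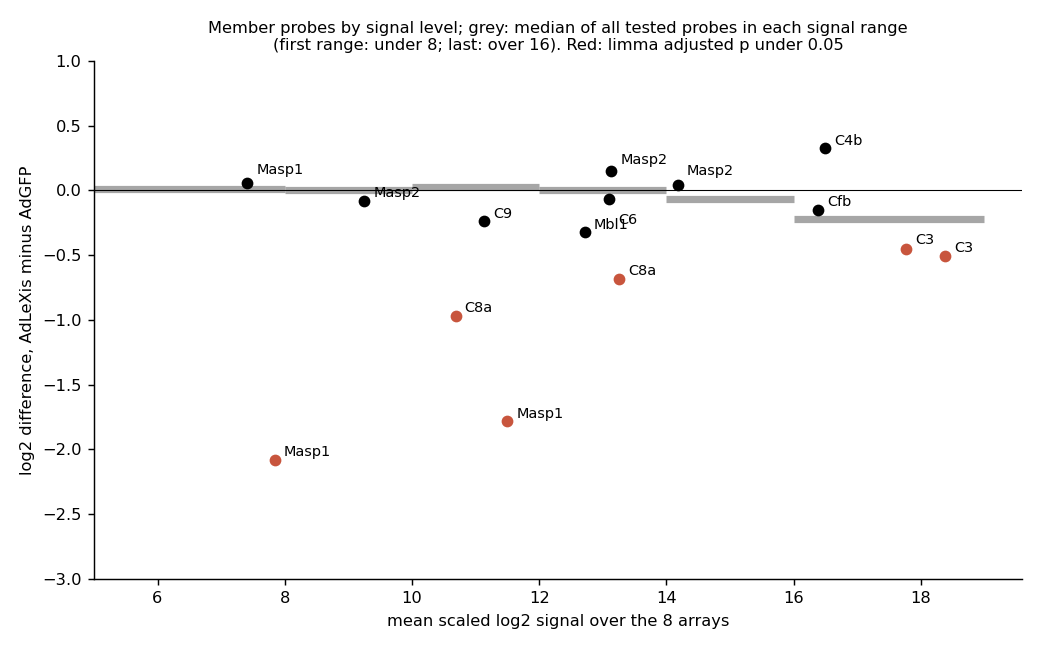
Log2 difference of each member probe (AdLeXis minus AdGFP, vertical axis) against its mean scaled log2 signal, with grey bars for the median of all tested probes in each signal range (the outermost 2 bars stand for under 8 and over 16). The 2 C3 probes lie in the brightest range, whose median is -0.22, while the Masp1 and C8a probes lie in ranges whose medians are near 0.

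Cfb encodes factor B, which joins C3b to form the C3 convertase of the alternative pathway. The probe A_51_P413866 (NM_008198, chromosome 17, 34993502 to 34993858 in mm9, across an exon junction) stood at 16.54, 16.46, 16.59 and 16.27 in AdGFP and at 16.25, 16.27, 16.36 and 16.36 in AdLeXis. Only AdGFP replicate 4 lay within the AdLeXis range. The difference of -0.15 (SE 0.09, 95% interval -0.36 to 0.06, limma adjusted p = 0.315) missed the threshold and was 0.06 with quantile scaling and 0.09 with normexp.

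Among the terminal components, C8a was lower on both of its probes. It encodes the alpha chain of C8, the component that first enters the membrane when the attack complex forms. On A_55_P2051476 the AdGFP arrays stood at 11.07, 11.01, 11.48 and 11.12 and the AdLeXis arrays at 9.81, 10.28, 10.62 and 10.10. Replicate 3 was the highest of each group and AdLeXis replicate 1 the lowest of all, with no overlap. The difference was -0.97 (SE 0.18, limma adjusted p = 0.0115), 1.96-fold lower with a 95% interval of 1.47 to 2.62, and it passed in all 18 alternatives.

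The other C8a probe, A_51_P204247 (chromosome 4, 104488479 to 104488538 in mm9), lies 10.8 kb further along the gene. Its values were 13.36, 13.56, 13.91 and 13.58 in AdGFP and 12.49, 12.96, 13.35 and 12.87 in AdLeXis, with the same order of AdLeXis arrays. AdLeXis replicate 3, at 13.345, lay just under AdGFP replicate 1, at 13.357. The difference of -0.68 (SE 0.19, limma adjusted p = 0.0461) was lost without a filter on dim probes (adjusted p = 0.0919) and without any 1 array except AdLeXis replicate 3, at -0.76 to -0.54, and the adjusted p over all alternatives ran from 0.0107 to 0.104. Within arrays this probe fell less than A_55_P2051476, by 0.29 (exact permutation p = 0.0286, 0.0457 adjusted over the 8 pairs), and by 0.11 with normexp.

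C6, which binds C5b as the attack complex starts to form, did not pass the test. Its probe (A_51_P449995, NM_016704, chromosome 15, 4748363 to 4748422 in mm9) stood at 13.12, 13.16, 13.33 and 12.92 in AdGFP and at 12.25, 13.30, 13.36 and 13.37 in AdLeXis. Apart from AdLeXis replicate 1, the AdLeXis arrays lay near the top of the AdGFP range or above it. The difference was -0.06 (SE 0.25, 95% interval -0.64 to 0.51, limma adjusted p = 0.896), and 0.21 without AdLeXis replicate 1.

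C9, whose copies form the wall of the pore, stood at 11.32, 10.91, 11.42 and 11.36 in AdGFP and at 10.91, 10.82, 11.28 and 11.02 in AdLeXis on A_51_P255295 (NM_013485, chromosome 15, 6433127 to 6433186 in mm9). The groups overlapped, with AdGFP replicate 2 among the AdLeXis values. The difference was -0.24 (SE 0.15, 95% interval -0.58 to 0.09, limma adjusted p = 0.315) and turned to 0.05 with normexp.

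Over the 15 probes, 1 array of each group was often the extreme one. AdGFP replicate 3 was the highest of its group for 10 probes, and AdLeXis replicate 3 for 8. Both lie at position 3 of their slide row, and the part of position was not tested. AdLeXis replicate 1 was the lowest of its group for 6 probes and AdLeXis replicate 4 for 7. Leaving out any 1 array left 5 or 6 member probes lower.

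**Figure D4:**
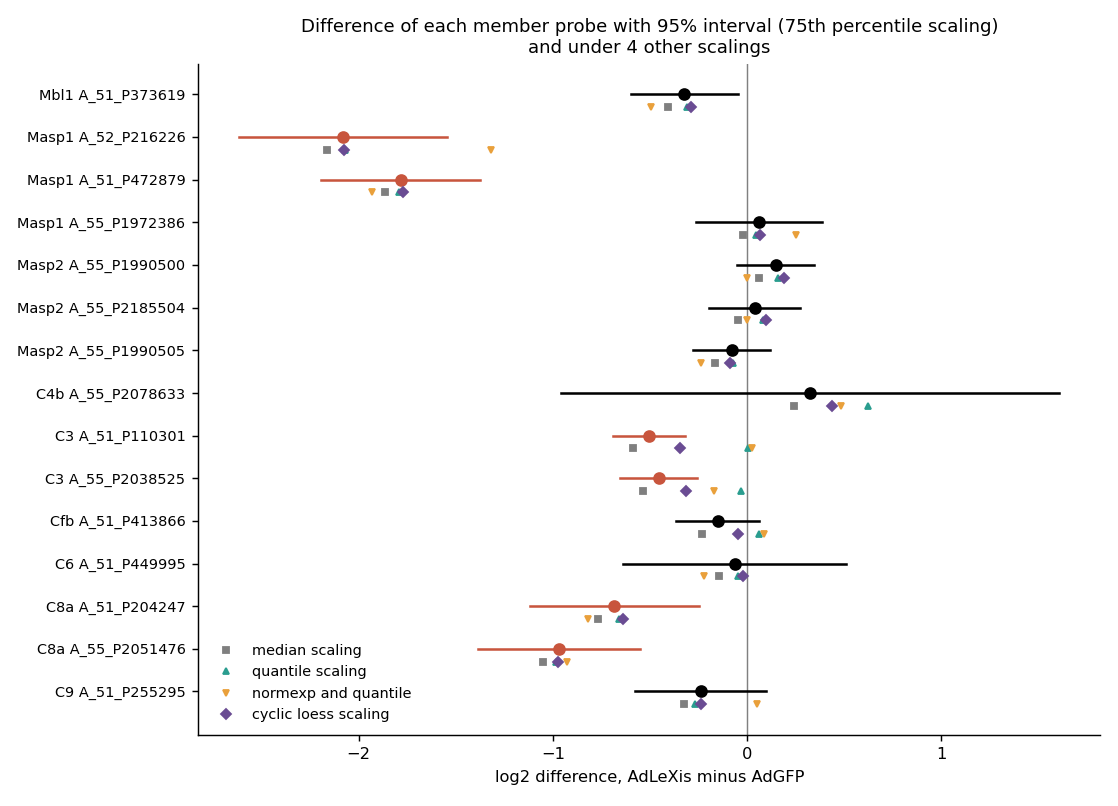
Log2 difference (AdLeXis minus AdGFP) of the 15 member probes with the 95% interval from limma under 75th percentile scaling (circles and lines, red at an adjusted p under 0.05), and the same difference under 4 other scalings (small symbols). The Masp1 and C8a falls keep their direction under each scaling, and the C3 differences move to between -0.17 and 0.03 with quantile scaling, alone or after normexp.

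The rest of the pathway was read from lists of 52 further complement genes, of which 43 were on the array with 56 probes, 51 of them tested. Of the 51 tested probes 11 were lower, for 10 genes, and 1 was higher, where 7.17% and 7.69% of all probes were, and the median was -0.11. The lower count was 6 without AdLeXis replicate 4 and 7 without AdGFP replicate 1, and no probe of these lists was higher without any 1 array except AdLeXis replicate 1. None of the 4 other lectin recognition genes tested was lower. Mbl2, for mannose-binding lectin C, was the 1 probe that rose, from 16.72 to 16.90 on the AdGFP arrays to 17.02 to 17.15 on the AdLeXis arrays (0.29, SE 0.08, limma adjusted p = 0.0451). That rise lay between 0.20, not called (adjusted p = 0.228), with median scaling and 0.59 with quantile scaling. Fcna for ficolin A (0.45, limma adjusted p = 0.0766) and Colec10 for a liver collectin (0.44, limma adjusted p = 0.0641) lay higher on every AdLeXis array without passing, Colec11 differed by -0.03, and Fcnb was too dim to test.

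Of the C1 complex, 4 of 8 probes were lower and none higher, and with normexp 3 were lower and 1 higher. C1qb and C1qc, for 2 of the 3 chains of C1q that recognises antibody, changed by -0.48 and -0.65 (limma adjusted p = 0.0433 and 0.0143). The C1qb call was lost with quantile scaling (adjusted p = 0.0562), with cyclic loess (adjusted p = 0.0603) and with normexp (-0.28, adjusted p = 0.243), while C1qc passed under each of the 4 other scalings. C1qa, for the remaining chain, differed by -0.41 without passing (limma adjusted p = 0.0725). It passed with median scaling and with normexp (both -0.49, adjusted p = 0.0400 and 0.0156). Quantile scaling (adjusted p = 0.0951) and cyclic loess (adjusted p = 0.106) did not call C1qa. C1ra, for a protease of C1, changed by -0.38 on 1 probe (limma adjusted p = 0.0165) and by -0.35 on the other (adjusted p = 0.104). The first of these was 0.10 with normexp. The similar copy C1rb changed by -0.63 (limma adjusted p = 0.0368), and the probes may not separate RNA of the 2 copies.

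C1q is made mainly by macrophages. Of 15 probes for Kupffer cell and macrophage markers 5 were lower, for Cd68, Lyz2, Mpeg1 and Timd4, with none called higher. Clec4f and Vsig4 lay above 0 without passing (0.10 and 0.50, limma adjusted p = 0.762 and 0.103). The other Cd68 probe was not called (-0.31, limma adjusted p = 0.117). With median scaling 9 of the 15 probes were lower, and with normexp 8 were lower and 1, for Vsig4, higher. The normexp calls were not the same set. Timd4 (-0.37, adjusted p = 0.0672) and the Cd68 probe called in the main test (-0.11, adjusted p = 0.533) were not among them. The mean scaled log2 level of that list ran from 10.63 to 11.00 in AdGFP and from 10.14 to 10.44 in AdLeXis, and no marker of it was at background. Its part in the C1q differences was not tested.

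In the terminal pathway, C8b, the beta chain of C8, fell with C8a. In the order of genes it is the neighbour of C8a. Its probe stood at 14.21, 14.22, 14.57 and 14.35 in AdGFP and at 13.11, 13.48, 14.14 and 13.41 in AdLeXis, again with replicate 3 the highest of each group. The difference was -0.80 (SE 0.21, limma adjusted p = 0.0364). C8g, the third chain, differed by 0.20 and 0.23 on its 2 probes (limma adjusted p = 0.385 and 0.152), and the second passed as higher under 3 of 4 other scalings. Hc, which encodes C5, differed by -0.19 (limma adjusted p = 0.294), and the C7 probes were too dim to test.

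C2, which lies beside Cfb and is cut by the same proteases as C4, differed by -0.17 (limma adjusted p = 0.285). Cfp, for properdin, which stabilises the alternative convertase, differed by -0.22 (limma adjusted p = 0.223). Cfd, for factor D, which cuts factor B, differed by 1.34 with an SE of 0.72 (limma adjusted p = 0.250). Its arrays spread from 7.54 to 10.38 in AdGFP and from 9.64 to 11.74 in AdLeXis.

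Soluble regulators gave 4 of 12 probes lower and 0 higher, and 2 lower and 1 higher with normexp. Of these, Serping1, for the C1 inhibitor, which blocks C1r, C1s and the MASPs, passed on both of its probes. On A_55_P1992889 it stood at 17.26, 17.01, 17.25 and 17.12 in AdGFP and at 16.42, 16.39, 16.58 and 16.48 in AdLeXis. Both probes showed no overlap, at -0.69 and -0.65 (SE 0.09 and 0.13, limma adjusted p = 0.00322 and 0.0128), and the differences were -0.30 and -0.36 with normexp, where the second was not called (adjusted p = 0.146).

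Clu, for clusterin, which holds back the attack complex, changed by -0.37 (limma adjusted p = 0.0168), and by -0.01 with quantile scaling. C4bp, for C4b-binding protein, changed by -0.33 (limma adjusted p = 0.0215), and by -0.17, not called, with quantile scaling. Vtn, for vitronectin, differed by -0.26 (limma adjusted p = 0.0571) and was above 0 with quantile scaling and with normexp. Cfhr2, a further gene of this list, had probes on both sides of 0, at 0.08 and -0.03, with neither called in the main test, and the second passed as higher with normexp (0.32, adjusted p = 0.0386).

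None of 7 probes for membrane regulators passed. Cd59a, which blocks C9, lay lower on all 4 AdLeXis arrays without passing (-0.23, limma adjusted p = 0.0809) and passed with quantile scaling (-0.26, adjusted p = 0.0492), and Daf2, for a decay-accelerating factor, had 1 probe at -0.33 and 1 at 0.25. Of 13 receptor probes 2 were lower, Itgb2 (-0.68, limma adjusted p = 0.00727) and Itgax (-0.83, limma adjusted p = 0.0141), the 2 chains of the leukocyte integrin complement receptor 4. The Itgax call was lost with normexp (-0.46, adjusted p = 0.0925). Vsig4, the complement receptor of Kupffer cells, differed by 0.50 (limma adjusted p = 0.103) and passed as higher with normexp (0.77, adjusted p = 0.00450), so that the receptor list then held 1 lower and 1 higher probe. In the main test the probes of Cr2 and Itgam lay on both sides of 0 with none called. Itgb2 and Itgax are carried by leukocytes, and 9 of 10 probes for T and NK cell markers were lower too, with a mean scaled log2 level of 8.80 to 8.95 in AdGFP and 7.94 to 8.17 in AdLeXis. All 10 of those probes were tested, and their part in the integrin differences was not tested.

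Among the remaining marker lists, none of 9 endothelial, 5 B cell or 6 neutrophil probes passed, 2 of 6 stellate cell probes (Des and Pdgfrb) and 1 of 4 cholangiocyte probes (Epcam) were lower, and none of these probes was higher. Pdgfrb (adjusted p = 0.112) and Epcam (adjusted p = 0.145) were not called with normexp, where 1 of the 9 endothelial probes was higher, and 1 of the 5 B cell probes was lower with quantile scaling.

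**Figure D5:**
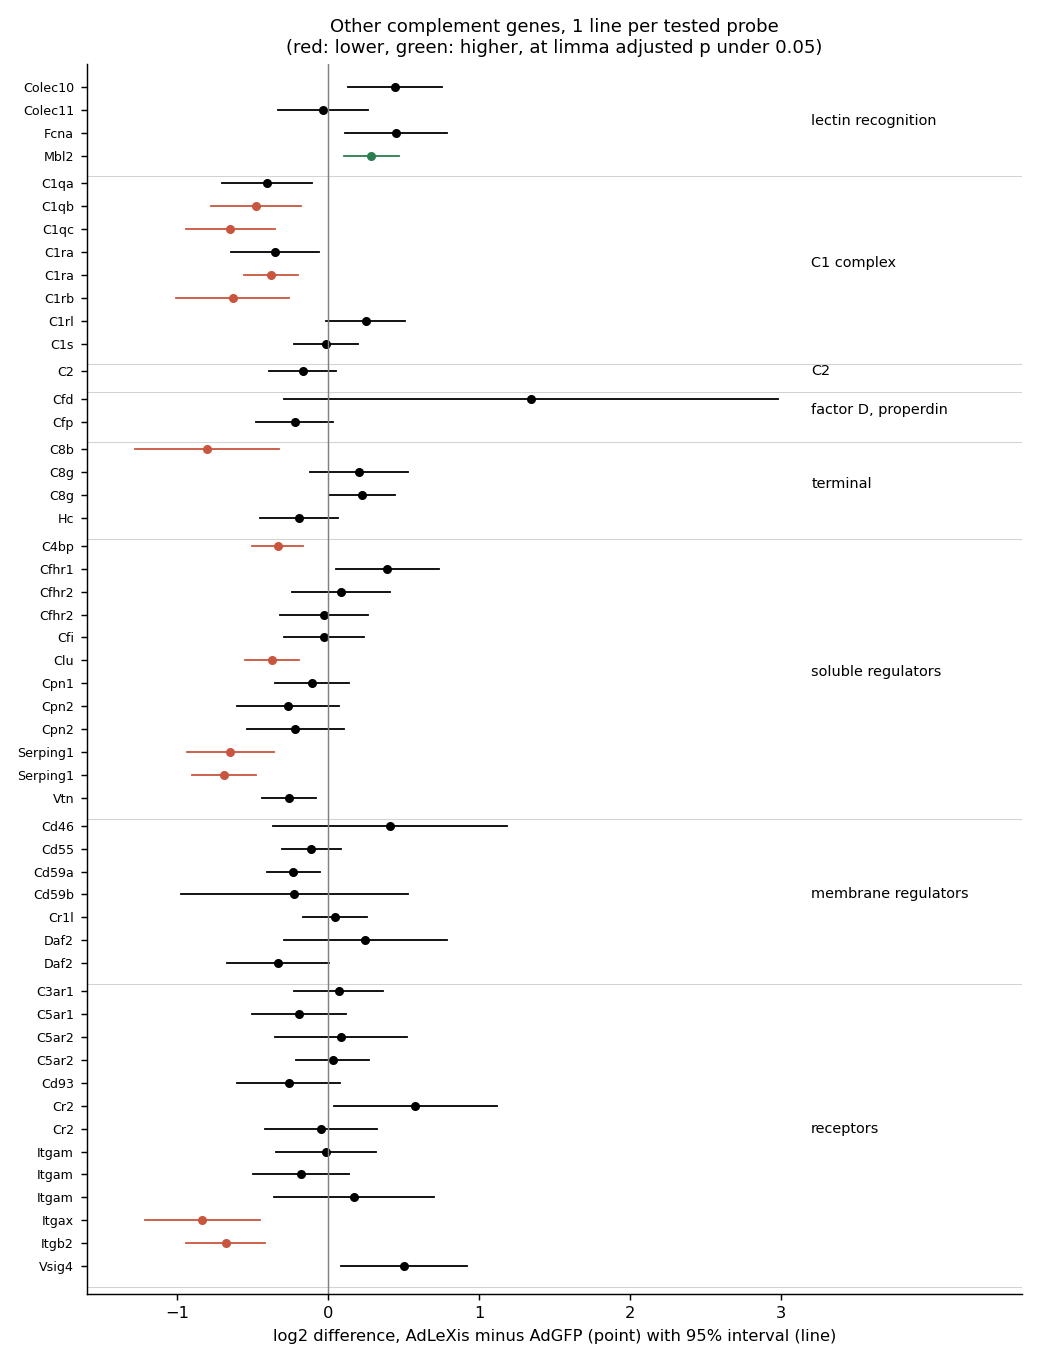
Log2 difference (AdLeXis minus AdGFP) with its 95% interval for the 51 tested probes of other complement genes, grouped by role. Lower probes (red) include both Serping1 probes, C8b, C1qb, C1qc, Itgax and Itgb2, and Mbl2 is the 1 higher probe (green).

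Acute-phase genes did not move one way. Of 25 probes 7 were lower and 5 higher, with a median of -0.21. With normexp 3 were lower and 7 higher, with a median of 0.08, and with quantile scaling 3 were lower and 5 higher. Saa3 and Saa4, for serum amyloid A proteins, rose by 1.47 and 1.16 (limma adjusted p = 0.00385 and 0.00375), while Orm1, for an acid glycoprotein, fell by 0.80 (limma adjusted p = 0.00596) on the log2 scale, and by 0.47 with normexp. Hp, for haptoglobin, changed by -0.51 (limma adjusted p = 0.00938), and by -0.0031 with quantile scaling. Fga, for a fibrinogen chain, had 1 probe at 0.65 (limma adjusted p = 0.0277) and 1 at -0.21 (adjusted p = 0.419), and the first was not called with median scaling (adjusted p = 0.0622). The Saa and Orm genes are families of similar copies, whose RNA the probes may not fully separate, and the copies did not move together. Orm2 changed by -0.80 and Orm3 by 1.42 (limma adjusted p = 0.0130 and 0.0267). Saa1 and Saa2 differed by -0.17 and -0.22 without passing (limma adjusted p = 0.725 and 0.641).

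Among 18 probes for cytokine receptors and factors that act on these genes in liver, 3 were lower and 0 higher, and 4 lower and 2 higher with normexp. Socs3, an inhibitor induced by interleukin-6 signalling, stood at 10.76, 11.24, 11.25 and 11.54 in AdGFP and at 10.05, 10.30, 10.06 and 10.51 in AdLeXis (-0.97, SE 0.18, limma adjusted p = 0.0108), and its difference was -0.53 with normexp. Il6st, the shared receptor chain gp130, changed by -0.37 (limma adjusted p = 0.0236) and Nfkb1 by -0.34 (limma adjusted p = 0.0420). Irf1 differed by -0.43 on 1 probe (limma adjusted p = 0.0673) and by -0.38 on another (limma adjusted p = 0.676).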

How the data were processed

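Mouse liver RNA had been hybridised to 8 1-colour Agilent arrays (AdGFP 4, AdLeXis 4). As deposited by the authors, the values are linear spot intensity, background-subtracted and detrended within each array but not scaled between arrays, per the file headers (Agilent Feature Extraction 11.5.1.1; 11.5.1.11 per the submitters' processing notes). A deposited table for the whole series repeats that intensity (largest relative difference 0), so its scale is linear and uncentred. Probe positions are in mm9, per the file headers.

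From each log2 processed signal the 75th percentile of its array was subtracted and the mean percentile added back. Control spots and the 127 to 256 outlier spots of an array were not used, and repeated spots were averaged. Testing required signal well above background on 4 or more arrays and values on 2 or more arrays per group, which left 34450 of 55681. Groups were compared per probe with limma 3.58.1 in R 4.3.3, two-sided, with Benjamini-Hochberg adjustment over all tested probes at 0.05, and the procedure was tested on simulated data. Alternatives were median, quantile, normexp (offset 50) with quantile and cyclic loess scaling, other filters and variance models, a replicate block, the value table and each array left out. The value table repeats the scanner intensity, so its fit could not differ from the main one. Pairs of probes were compared within arrays by exact permutation tests.

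The members, gene lists and tests were chosen with earlier results of these data known. Every member probe is reported. Of each list of other complement, acute-phase and cytokine genes, up to 4 genes by smallest p and those with probes on opposite sides of 0 are named, and lists of 5 or fewer whole. The other Saa and Orm genes and C1qa are named beside these. Cell type marker lists are given by their counts, with some of their genes named. One gene of the soluble regulators is not reported here. Probe sequences come from the scanner files. Neighbouring genes were read from a RefSeq gene table of GRCm38.p6, used for gene order only.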

Additional observations from a re-analysis of the deposited data

Results flagged for a closer look

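Among the 30 groups of 4 arrays (15 member probes in each treatment), 3 held 1 array far from the other 3 by Dixon's test at the 95% level, which chance gives in about 1 group in 20. On C4b, AdGFP replicate 3 stood at 14.37 on the log2 scale against 16.96 to 17.04 on the other AdGFP arrays. C6 stood at 12.25 on AdLeXis replicate 1 against 13.30 to 13.37 on the other 3 AdLeXis arrays. C3 on A_51_P110301 stood at 18.28 on AdLeXis replicate 1 against 18.08 to 18.11 on the others, which is nearer to the AdGFP values.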

How the results depend on the processing

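The member count was 6 lower, and 4 with quantile scaling, 5 with normexp, cyclic loess or no filter, 7 with a variance trend, and 5 to 6 with 1 array left out. C3 on A_51_P110301 was not called at 0.0023 with quantile scaling and 0.027 with normexp (limma adjusted p = 0.987 and 0.773). The cause was not tested. Over all probes the main split was 2470 lower and 2648 higher. Without a filter it was 1506 and 1463, over more probes tested, and with median scaling 3154 and 1458, so that 31.6% of called probes were higher in place of 51.7%. Leaving out 1 array gave 1430 to 2524 lower and 1399 to 2505 higher, with over 1.5 times fewer lower without AdGFP replicate 1 (1548), AdGFP replicate 2 (1584) or AdLeXis replicate 4 (1430), and over 1.5 times fewer higher without AdLeXis replicate 2 (1564) or AdLeXis replicate 4 (1399). Other complement probes numbered 11 lower and 1 higher. They were 7 lower with normexp and 5 without a filter, and 6 to 10 with 1 array left out. Higher ones numbered 0 with median scaling or no filter, 2 with quantile scaling, cyclic loess or the filter on all 8 arrays, 5 with normexp, 4 with a variance trend, 3 when it was robust, and 0 to 1 with 1 array left out. The samples were not taken as pairs by replicate number, though the file headers give same-numbered arrays the same position in their slide rows. Same-numbered arrays correlated at 0.0047 to 0.10 in their deviations, and other pairs at -0.094 to 0.091. These values do not settle whether the samples are paired. A replicate block left 6 member probes lower, 6 other complement probes lower and 0 higher, and 1764 lower and 1781 higher over all probes. Signal over background limits the rest: C7 and Fcnb were too dim to test.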
